A study of Mus musculus with 8 samples.

Results

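The genes of 3 signals that guide migrating interneurons, 10 genes in all, were followed here in the medial ganglionic eminence (MGE), the ventral forebrain zone in which many cortical and striatal interneurons are born. These are the chemokine receptors Cxcr4 and Ackr3 (formerly Cxcr7), the chemokines Cxcl12 and Cxcl14, the glial cell line-derived neurotrophic factor gene Gdnf with its receptors Gfra1, Gfra2 and Ret, and the hepatocyte growth factor gene Hgf with its receptor Met. Every array probe whose RefSeq transcript accession maps to 1 of these 10 genes was taken, which gave 16 probes of 41174 on the array, where 17178 gene symbols could be assigned. The genes were listed for their role in migration and not for their signal on these arrays, although earlier results of the same data were known when the list was made.

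CXCL12 is a secreted chemokine that attracts migrating interneurons through the G protein-coupled receptor CXCR4, and ACKR3 is an atypical receptor for the same ligand that takes it up and limits how much of it reaches CXCR4. GDNF binds the membrane-anchored receptors GFRA1 and, with less preference, GFRA2, which signal together with the receptor tyrosine kinase RET or the adhesion molecule NCAM. HGF acts through the receptor tyrosine kinase MET, and both GDNF and HGF have been described as factors that promote the movement of cells out of the MGE.

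Total RNA from microdissected MGE of C57BL/6 mouse embryos at embryonic day 13.5 was hybridised to 8 one-colour Agilent arrays, 1 sample per array. The 4 WT samples are labelled Nkx2-1flox/+;Olig2tva-cre- and the 4 Nkx2-1cKO samples Nkx2-1flox/+;Olig2tva-cre+. By these labels all 8 carried the floxed Nkx2-1 allele and the groups differ by the Cre. The series describes the mutants as conditional nulls, and the methods of the study name an Nkx2-1f/f strain. In contrast, these genotype labels give 1 floxed and 1 wild type allele in both groups. The Nkx2-1cKO arrays kept 1.24% of the WT Nkx2-1 signal, and the genotypes were not tested here. The Cre is expressed from the Olig2 locus, which is active in ventral forebrain progenitors, so recombination is limited to those cells and their progeny. The labels do not say whether a sample is 1 embryo or a pool, and the p-values measure only the spread between these samples.

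The level of a probe is given as its log2 signal, the log2 of the scanner-processed intensity minus the 75th percentile of the same array, so that 0 is the signal of the probe at that percentile. A log2 fold change is the Nkx2-1cKO mean minus the WT mean, and adjusted p-values come from limma with Benjamini-Hochberg adjustment over the 31280 probes that were well above background on at least 4 arrays. The Nkx2-1 signal itself was 1.87 ± 0.06 in WT and -4.46 ± 0.19 in Nkx2-1cKO (SD over 4 arrays in each group). Its log2 fold change was -6.34, which left 1.24% of the WT signal, and all mutant arrays lay below all WT arrays. Between 71.1% and 79.5% of the probes on an array were well above background and none was saturated. The arrays lay on 2 slides with 2 WT and 2 Nkx2-1cKO arrays on each, so each comparison could also be made within a slide.

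A pair of WT arrays stood apart from the others in ways that touch these genes. WT replicate 1 read high for dim probes, since over the 20% dimmest probes its median deviation from the other arrays was 1.43 on the log2 scale, against -0.20 to 0.02 for the other 7. WT replicate 4 had the highest signals of mesenchyme and meninges markers, whose summed linear level over 10 genes was 7.66 there and between 1.06 and 1.71 on the other 7 arrays. Values without the array concerned are given beside the genes whose value it moved most.

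Of the 10 genes, 8 had a tested probe and 2 of these passed the threshold, Ackr3 with a lower and Gfra1 with a higher signal in Nkx2-1cKO. Over all 14447 tested genes, each represented by its brightest probe, 1.34% passed the threshold, with 0.491% higher and 0.851% lower, and of all tested probes 1.04% passed. The WT and mutant arrays did not overlap for the same 2 of 8 genes, against 6.85% of all tested genes, of which 4.02% had the mutant arrays below and 2.82% had them above. Cxcr4, Cxcl12, Cxcl14, Gfra2, Gdnf and Met did not pass the threshold, and Ret and Hgf were too dim to be tested.

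The sequences just upstream of the annotated starts of Ackr3, Cxcr4 and Gfra1 are shown because these are the 2 genes that changed and the second CXCL12 receptor, to which Ackr3 is compared. They are the 250 bases before a RefSeq start in the GRCm38.p6 mouse assembly, written 5′ to 3′ in the direction of the gene. They lie at chr1:90203730-90203979 on the plus strand for Ackr3, chr1:128592300-128592549 on the minus strand for Cxcr4 and chr19:58455399-58455648 on the minus strand for Gfra1. The Gfra1 window lies inside the annotated span of that gene (chr19:58235581-58455946), so it precedes an internal start and not the outermost one. Capitals mark matches on either strand to the NKX2-1-type motif CACTNNAG, the E-box CANNTG or the TATA box TATAAA.
Ackr3: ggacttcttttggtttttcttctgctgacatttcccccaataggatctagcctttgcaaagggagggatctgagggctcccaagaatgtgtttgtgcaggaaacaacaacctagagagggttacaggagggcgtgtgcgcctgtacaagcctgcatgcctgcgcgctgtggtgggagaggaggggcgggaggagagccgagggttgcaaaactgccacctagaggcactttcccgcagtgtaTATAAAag
Cxcr4: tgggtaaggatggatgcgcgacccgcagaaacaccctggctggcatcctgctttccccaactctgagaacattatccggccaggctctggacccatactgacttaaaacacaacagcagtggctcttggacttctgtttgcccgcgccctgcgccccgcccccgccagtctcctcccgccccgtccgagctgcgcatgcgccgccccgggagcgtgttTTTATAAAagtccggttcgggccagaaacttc
Gfra1: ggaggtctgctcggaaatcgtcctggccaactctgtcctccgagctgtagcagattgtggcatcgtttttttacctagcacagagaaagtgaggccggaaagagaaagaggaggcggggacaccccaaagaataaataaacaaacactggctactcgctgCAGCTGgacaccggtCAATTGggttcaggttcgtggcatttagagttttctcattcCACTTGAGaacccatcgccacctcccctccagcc
Both CXCL12 receptor genes held a TATAAA in this window, at bases 8 to 3 before the annotated start of Ackr3 and 30 to 25 before that of Cxcr4, where an overlapping match on the other strand ran from base 32 to 27. The motif was present in 12.4% of 32851 windows of the same length. Neither receptor window held an NKX2-1-type motif or an E-box. The Gfra1 window held 1 NKX2-1-type match at bases 34 to 27 before the start, which overlaps the third of its 3 E-boxes. Among all windows, 12.9% held the NKX2-1-type motif and 66.2% an E-box. Of the 10 genes, 8 had a window, and there were 10 windows because Gdnf and Hgf had 2 each. The NKX2-1-type motif was in a window of 3 genes (Gfra1, Cxcl12 and Gdnf), for Gdnf in 1 of its 2. These counts are by gene, whereas the shares are by window. Other motifs searched are not marked above. The SOX-type ACAAT was in a window of the same 3 genes, at bases 197 to 193 for Gfra1 and in the other window for Gdnf. It was in 27.7% of all windows. None of the 8 genes held the LIM homeodomain-type TAATTA, the octamer ATGCAAAT or the MEIS-type TGACAG. Their shares of all windows were 4.84%, 1.60% and 15.9%. A match of letters is a description of the window and was not related to binding here.

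Ackr3, the atypical CXCL12 receptor, was measured by 1 probe and had the clearest change of the 10 genes. Its signal was 2.73, 2.77, 2.75 and 2.79 on the 4 WT arrays and 2.15, 1.82, 1.83 and 1.87 on the 4 Nkx2-1cKO arrays. The WT values lay within a narrow band, and every mutant array was below all of them, with Nkx2-1cKO replicate 1 the closest. The mean fell from 2.76 ± 0.03 to 1.91 ± 0.16 (SD, n = 4 in each group). This is a log2 fold change of -0.85 (SE 0.09, 95% interval -1.05 to -0.65, limma adjusted p = 0.00159), which left 55.6% of the WT signal. The exact two-sided permutation test over the arrays gave p = 0.0286, the smallest that 4 against 4 allows. The difference was -0.90 within slide 1 and -0.80 within slide 2. It was -0.86 without WT replicate 1 (limma adjusted p = 0.00594) and passed the threshold with each array left out in turn. With each array centred on its median the log2 fold change was -0.73 and the limma adjusted p 0.0762, which ends the call, in a range of 5.35e-06 to 0.0762 over all alternatives.

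Cxcr4, the signalling receptor for the same ligand, was measured by 2 probes, and neither passed the threshold. The brighter one read -2.14, -2.50, -2.11 and -2.40 in WT and -2.59, -2.41, -2.52 and -2.38 in Nkx2-1cKO. The groups overlapped, and the log2 fold change was -0.19 (SE 0.12, 95% interval -0.46 to 0.09, limma adjusted p = 0.662). The other probe read -2.42, -2.26, -2.53 and -2.37 in WT and -2.37, -2.84, -2.54 and -3.07 in Nkx2-1cKO, where replicates 2 and 4 were well below every WT array, replicate 3 was just below the lowest of them and replicate 1 was not. Its log2 fold change was -0.31 (SE 0.16, 95% interval -0.66 to 0.04, limma adjusted p = 0.622). Both intervals include 0.

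The changes of the receptors for CXCL12 were set against each other within each array, as a description with no test, since the pair was chosen after the values were seen. The change of Ackr3 minus that of Cxcr4 was -0.66 on the log2 scale with the brighter Cxcr4 probe (SD over arrays 0.22 in WT and 0.24 in Nkx2-1cKO) and -0.54 with the other (SD 0.10 and 0.24).

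Cxcl12, the ligand of both receptors, did not pass the threshold on either of its probes, which were designed on different RefSeq transcripts of the gene. The brighter one read -1.45, -0.96, -1.13 and 0.47 in WT and -1.43, -1.26, -0.94 and -1.11 in Nkx2-1cKO. The value of 0.47 belongs to WT replicate 4, and the other 3 WT arrays lay within the range of the mutant arrays or just below it. The log2 fold change was -0.42 (SE 0.35, 95% interval -1.21 to 0.38, limma adjusted p = 0.704) with all arrays and -0.0045 without WT replicate 4 (limma adjusted p = 0.991). Within slide 1 the difference was 0.10 and within slide 2, which holds WT replicate 4, it was -0.94. The second probe read -2.44, -3.05, -2.32 and -2.18 in WT and -3.55, -2.51, -2.73 and -2.25 in Nkx2-1cKO, with a log2 fold change of -0.26 (SE 0.28, limma adjusted p = 0.76). WT replicate 4 was the highest array here too, but only just above Nkx2-1cKO replicate 4. The log2 fold change of this probe was -0.15 without WT replicate 4 and 0.0026 without Nkx2-1cKO replicate 1, its lowest array.

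Cxcl12 is made by meningeal and vascular cells as well as by neural cells, so the markers of these cells are given beside it. In the 10-gene list for mesenchyme and meninges the signal of WT replicate 4 was 1.26 for Col3a1, 0.87 for Col1a2, 0.56 for Dcn and -0.83 for Lum, in each case above the other 7 arrays. These 4 genes were chosen after their values were seen. All 10 genes were tested, none passed the threshold and none was below background on every array. The summed linear level of the list was 1.09 to 7.66 in WT and 1.06 to 1.70 in Nkx2-1cKO. The 7 pericyte markers summed to 5.32 to 7.69 in WT and 5.57 to 6.48 in Nkx2-1cKO, and the 9 endothelial markers to between 10.7 and 15.9 in WT and between 12.3 and 15.5 in Nkx2-1cKO, with none past the threshold. WT replicate 4 had the highest sum of all arrays for these lists too. The part of these cells in the Cxcl12 signal of that array was not tested.

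**Figure D1:**
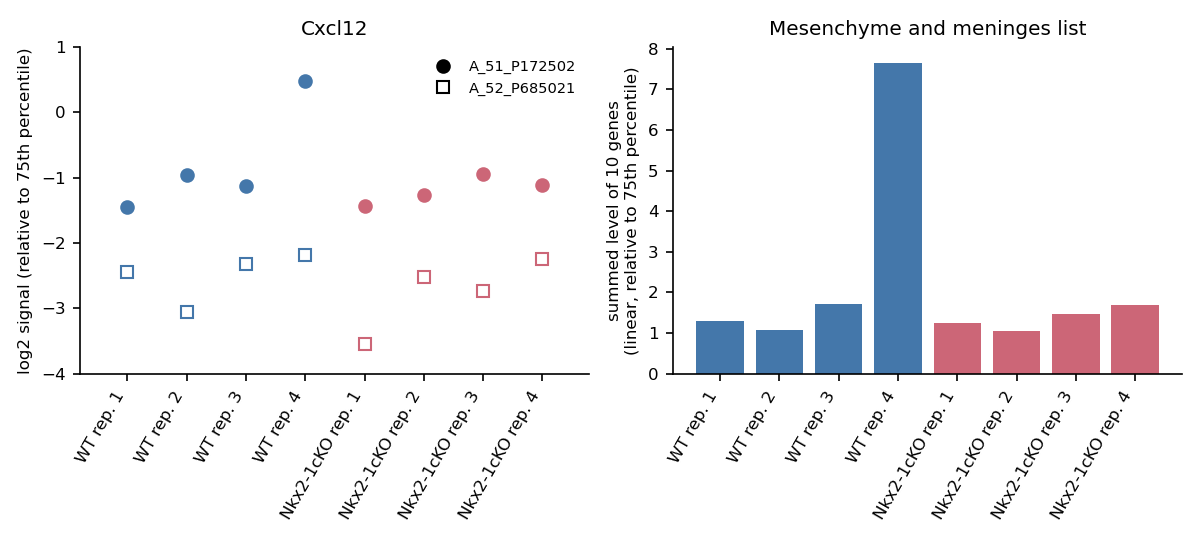
Left, log2 signal of the 2 Cxcl12 probes, with 0 at the 75th percentile of the array. Right, bars of the summed linear level of the 10 mesenchyme and meninges markers on the same arrays (blue, WT; red, Nkx2-1cKO). WT replicate 4 stands at 0.47 for the brighter Cxcl12 probe and at 7.66 for the marker sum, above the other 7 arrays in both.

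Cxcl14, a chemokine expressed in parts of the developing forebrain, differed little between the groups. It read 1.42, 1.83, 1.62 and 1.71 in WT and 1.37, 1.56, 1.81 and 1.60 in Nkx2-1cKO, and the values of the groups were interleaved. The log2 fold change was -0.06 (SE 0.12, 95% interval -0.32 to 0.20, limma adjusted p = 0.868), so the interval leaves room for a fold between 0.799 and 1.15.

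**Figure D2:**
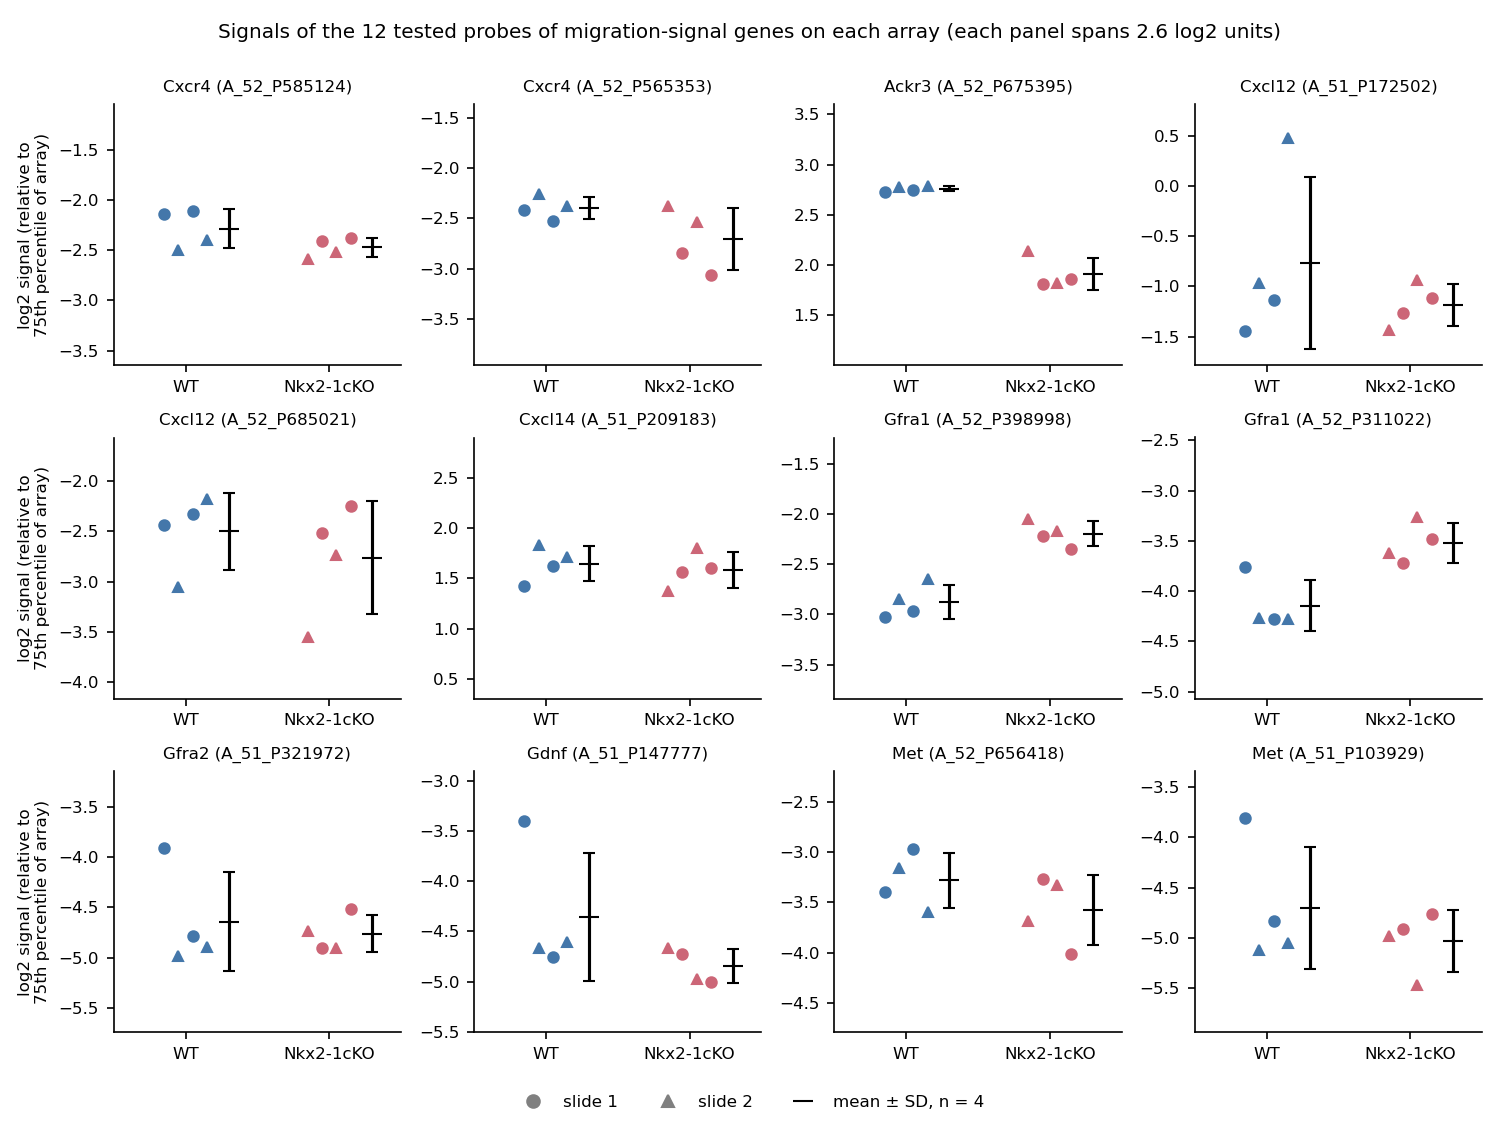
Log2 signal of the 12 tested probes of the 8 genes on each array, with 0 at its 75th percentile (blue, WT; red, Nkx2-1cKO; circles, slide 1; triangles, slide 2), with the mean and SD of 4 arrays beside each group and the same span of 2.6 log2 units in every panel. The groups are separate for Ackr3 (lowest WT 2.73, highest mutant 2.15) and for both Gfra1 probes, and overlap for the other 9.

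Gfra1, the main receptor for GDNF, was the other gene of the 10 that passed the threshold, with a higher signal in Nkx2-1cKO. Its brighter probe read -3.03, -2.85, -2.96 and -2.65 in WT and -2.05, -2.22, -2.17 and -2.35 in Nkx2-1cKO. Every mutant array was above every WT array. The mean rose from -2.87 ± 0.17 to -2.20 ± 0.13 (SD, n = 4 in each group). This is a log2 fold change of 0.67 (SE 0.12, 95% interval 0.40 to 0.95, limma adjusted p = 0.0325) or 1.60-fold (interval 1.32 to 1.93). The exact two-sided permutation p was 0.0286, and the difference was 0.71 within slide 1 and 0.64 within slide 2. With the slide as a block the limma adjusted p was 0.00747.

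The Gfra1 call stood close to the threshold. The log2 fold change stayed between 0.62 and 0.79 over the 17 alternatives, but 12 of them did not pass the threshold, and their limma adjusted p ranged from 0.00747 to 0.849. Leaving out any array but WT replicate 4 ended the call. Without WT replicate 1 the log2 fold change was 0.62 (limma adjusted p = 0.0676). The dimmer Gfra1 probe read -3.76, -4.26, -4.28 and -4.28 in WT and -3.62, -3.72, -3.26 and -3.48 in Nkx2-1cKO, again with no overlap. Its log2 fold change was 0.62 (SE 0.17, limma adjusted p = 0.219) with all arrays and 0.75 without WT replicate 1 (limma adjusted p = 0.0556), the array that lay closest to the mutants.

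Gfra2, which encodes the preferred receptor for neurturin, did not pass the threshold. It read -3.91, -4.98, -4.79 and -4.89 in WT and -4.73, -4.90, -4.90 and -4.52 in Nkx2-1cKO, and WT replicate 1 was the highest of all 8 arrays. The log2 fold change was -0.12 (SE 0.26, 95% interval -0.69 to 0.45, limma adjusted p = 0.882) and 0.12 without WT replicate 1. The change of Gfra1 minus that of Gfra2, another pair chosen after the values were seen and given with no test, was 0.80 with the brighter Gfra1 probe and 0.75 with the dimmer one. Without WT replicate 1 these differences were 0.50 and 0.63.

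Gdnf, the ligand, was dim and did not pass the threshold. It read -3.40, -4.66, -4.75 and -4.61 in WT and -4.67, -4.72, -4.98 and -5.01 in Nkx2-1cKO. WT replicate 1 lay well above the rest, and the other WT values overlapped the mutant ones. The log2 fold change was -0.49 (SE 0.30, limma adjusted p = 0.657) with all arrays and -0.17 without WT replicate 1 (limma adjusted p = 0.869). Ret, the kinase that signals for the GFRA receptors, was not well above background on any of the 8 arrays, so no fold is given for it.

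Met, the receptor for HGF, was tested on 2 of its 3 probes. The brightest read -3.40, -3.16, -2.97 and -3.60 in WT and -3.69, -3.27, -3.33 and -4.01 in Nkx2-1cKO, with overlapping groups and a log2 fold change of -0.29 (SE 0.20, 95% interval -0.75 to 0.16, limma adjusted p = 0.667). The second probe read -3.81, -5.11, -4.83 and -5.05 in WT and -4.98, -4.91, -5.47 and -4.76 in Nkx2-1cKO. Its log2 fold change was -0.33 (SE 0.31, limma adjusted p = 0.727) and -0.03 without WT replicate 1, the array that set its WT mean apart. The third Met probe was not well above background on any array. Hgf, the ligand, was near background throughout. One of its probes exceeded background clearly in 2 WT samples and no mutant one, the other in 1 mutant sample and no WT one, and neither was tested.

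**Figure D3:**
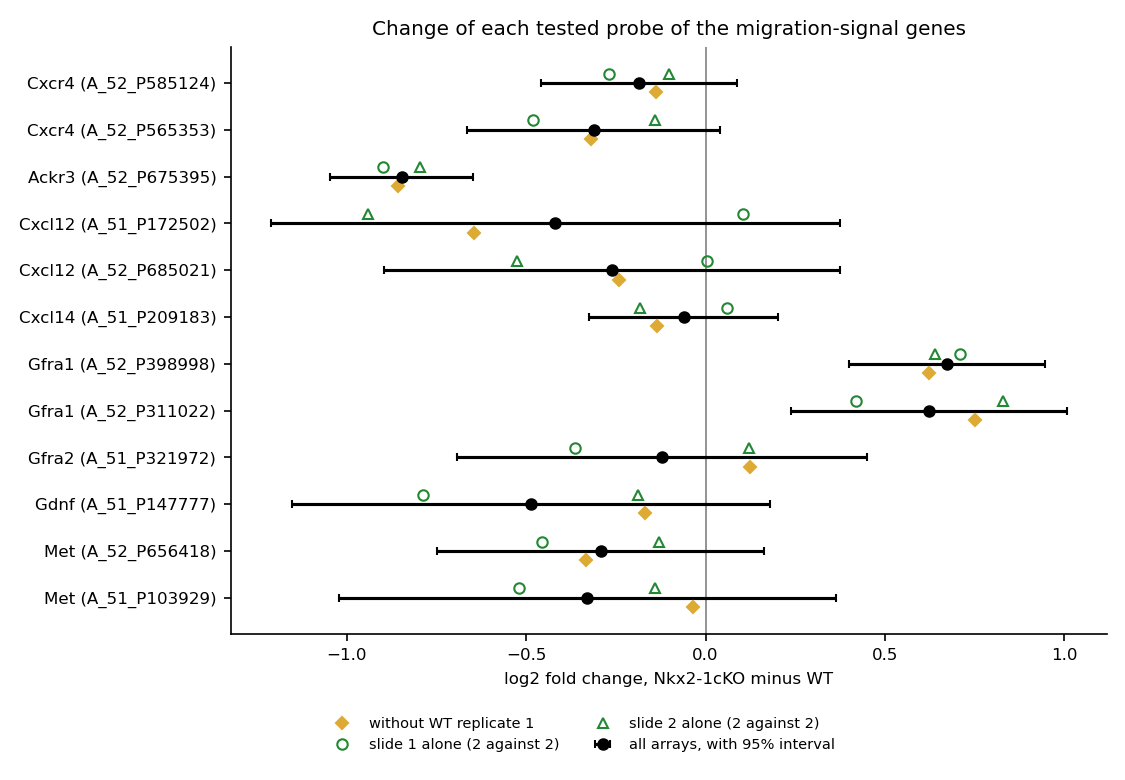
Log2 fold change, Nkx2-1cKO minus WT, of each tested probe of the 8 genes (black points with the 95% interval), with the difference within slide 1 (open circles), within slide 2 (open triangles) and without WT replicate 1 (diamonds). The Ackr3 interval runs from -1.05 to -0.65 and those of the Gfra1 probes from 0.40 to 0.95 and from 0.24 to 1.01, and the other 9 intervals include 0.

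The tissue itself differed between the groups in its cell type markers. Of 13 markers of MGE-derived neurons, 10 fell (Lhx6, Lhx8, Sst, Npy, Sox6, Maf, Satb1, Zeb2, Erbb4 and Nxph1), with a median log2 fold change of -1.65 over the list against -0.00 over all tested genes, of which 0.851% were called lower. Of 16 tested markers of the lateral and caudal ganglionic eminences (LGE and CGE), 8 rose (Meis2, Ebf1, Isl1, Zfp503, Foxp2, Six3, Rarb and Aldh1a3), with a median of 0.63, and 0.491% of all tested genes were called higher. The other 8 did not pass the threshold, and 2 of the 16 means were lower, the lowest at -0.13. The CGE factors Nr2f1, Nr2f2, Sp8 and Prox1, named only to account for the list, were not among the 8 that rose. None of the 10 progenitor, 10 pallial, 6 Cajal-Retzius, 8 microglial or 8 tested erythroid markers passed the threshold. In bulk tissue such as this, fewer cells of a type and less RNA per cell cannot be told apart, and the part of the shift in cell types in the Ackr3 and Gfra1 values was not tested.

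The 3 genes whose brightest probe followed Ackr3 most closely over the 8 arrays, of 14419 genes searched, were Pxdc1 (Pearson r = 0.994), the vascular growth factor gene Vegfc (r = 0.992) and the LIM homeobox gene Lhx8 (r = 0.991). All 3 were lower in Nkx2-1cKO, with log2 fold changes of -1.01, -0.60 and -3.67 (limma adjusted p = 0.00277, 0.00894 and 5.44e-06). Those closest to Gfra1 were the neurofilament gene Nefm (r = 0.978), Schip1 (r = 0.978) and the tetraspanin gene Tspan7 (r = 0.973). Nefm and Tspan7 rose by 0.75 and 0.55 on the log2 scale (limma adjusted p = 0.0237 and 0.00726), while Schip1 had a log2 fold change of 0.21 and did not pass the threshold (adjusted p = 0.442). These correlations describe 8 arrays that fall into 2 groups, so a shared difference between the groups is part of each r.

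Outside the 10 genes, 94 further genes of the same pathways were listed, and 69 of them were tested. One of the 69 passed the threshold, Gas1, which was higher, and none was lower, a share close to the 1.34% of all tested genes. Among 27 tested chemokine genes none passed, and the median log2 fold change was -0.05, with 11 means higher and 16 lower. The largest differences there were those of Cxcl15 (-1.07, limma adjusted p = 0.599), the neutrophil chemokine receptor gene Cxcr2 (-0.71, adjusted p = 0.665) and Ccr9 (-0.59, adjusted p = 0.672). Cxcl15 was well above background on 4 WT arrays but 1 Nkx2-1cKO array, and Ccr9 on 4 and 2, so both lay close to background. A second Cxcl15 probe was not well above background on any array. WT replicate 1 was the highest array for each, and without it the log2 fold changes were -0.71 for Cxcl15, -0.18 for Cxcr2 and -0.26 for Ccr9. Cxcl2, Cxcl3, Cxcl5, Cxcl9, Cxcl10, Ackr4, Ccr1 and Ccr7, named here only to account for the list, were not well above background on any array.

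Gas1 encodes a membrane protein related to the GFRA receptors that can bind RET and is also a coreceptor for Sonic hedgehog. It read -2.16, -2.70, -2.31 and -2.51 in WT and -1.90, -1.65, -1.58 and -1.46 in Nkx2-1cKO, without overlap. The mean rose from -2.42 ± 0.23 to -1.65 ± 0.19 (SD, n = 4 in each group). This is a log2 fold change of 0.77 (SE 0.14, 95% interval 0.45 to 1.10, limma adjusted p = 0.0394) or 1.71-fold. The difference was 0.68 within slide 1 and 0.86 within slide 2, and with the slide as a block the limma adjusted p was 0.00839, in a range of 0.00839 to 0.30 over all alternatives. The call was kept without WT replicate 1 (0.86, limma adjusted p = 0.0281) and without Nkx2-1cKO replicate 1, and was lost when any of the other 6 arrays was left out.

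The remaining 19 of 20 tested genes of the GDNF family pathway did not pass the threshold, and the list had a median log2 fold change of -0.06. The adaptor gene Dok5 had 0.52 (limma adjusted p = 0.357), with overlapping groups, and the ligand gene Artn had -0.46 (adjusted p = 0.734). Artn lay close to background, being well above it on 3 WT and 2 Nkx2-1cKO arrays. None of the 22 tested genes of the HGF pathway passed, with a median of -0.10. The largest differences were those of the plasminogen gene Plg (-0.79, limma adjusted p = 0.588), the protease inhibitor gene Spint1 (-0.46, adjusted p = 0.664) and Mst1, which encodes an HGF-related ligand (-0.45, adjusted p = 0.751). WT replicate 1 was the highest array for Artn, Plg, Spint1 and Mst1 as well, and without it their log2 fold changes were -0.07, -0.45, -0.23 and 0.06.

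**Figure D4:**
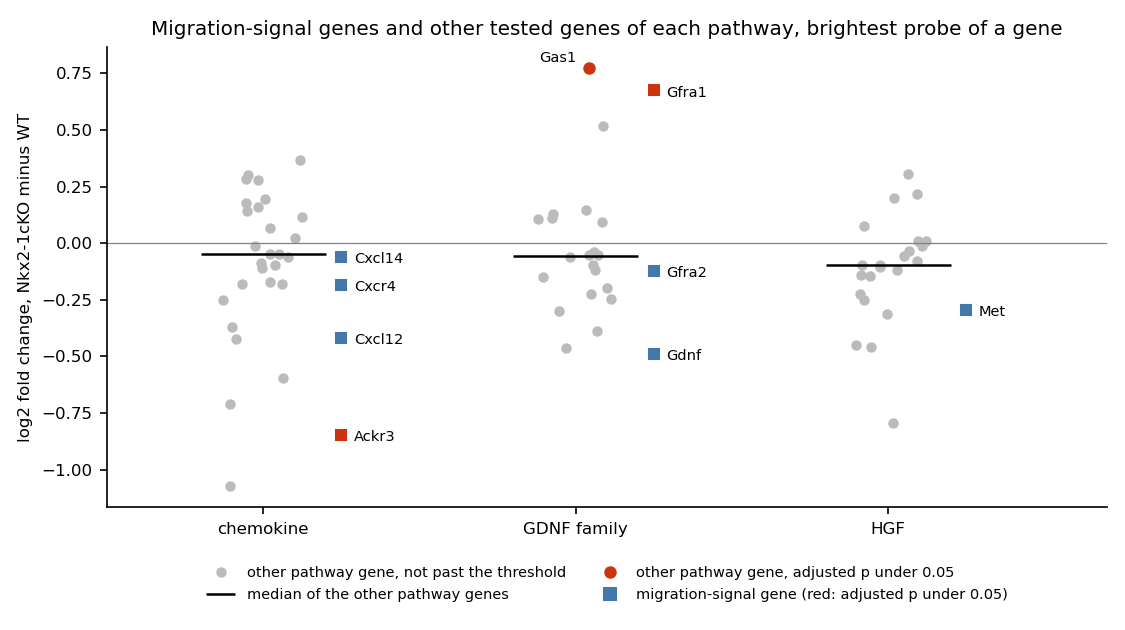
Log2 fold change, Nkx2-1cKO minus WT, by the brightest probe of each tested gene of the chemokine, GDNF family and HGF pathways (squares, the 8 tested migration genes; circles, the other pathway genes; lines, medians of the other pathway genes; red, limma adjusted p under 0.05). Gas1 at 0.77 is the only other pathway gene in red, beside Gfra1 at 0.67 and Ackr3 at -0.85, and the medians are -0.05, -0.06 and -0.10.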

How the data were processed

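Cy3-labelled RNA of 4 WT and 4 Nkx2-1cKO MGE samples was measured on Agilent arrays. The authors deposited Feature Extraction output (10.7.3.1 in the file headers, 10.1 in the submitters' processing notes), in which each intensity is background-subtracted and detrended but not scaled between arrays. The paper names no later processing for the arrays.

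Control and outlier spots were removed, log2 intensities were scaled to the 75th percentile within an array and spots of a probe were averaged. By accession, 24844 of 41174 probes were matched to 17178 symbols of the RefSeq table for GRCm38.p6, and the others are unnamed here. Promoter sequences came from RefSeq for the same assembly. Of all 41174 probes, with or without a symbol, 31280 were well above background on 4 or more arrays and were tested (50 missing values) in limma 3.58.1 (R 4.3.3), by lmFit and eBayes with trended variance, Benjamini-Hochberg adjustment and a threshold of 0.05. The brightest tested probe represents a gene. Single probes were also compared by exact two-sided permutation tests. The number of arrays limits the precision.

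The genes named are the 10 with every probe, pathway genes past the threshold and the 3 with the largest change in each pathway list, the 3 genes most like each of the 10 that passed, Nkx2-1, and cell type markers past the threshold. Exceptions are marked, and 1 marker gene is not reported here. The genes and lists were chosen with earlier results of these data known. The alternatives were normexp on the median spot signal (offset 50), median centring, quantile normalization, all probes unfiltered, the upper 60% of probes by mean signal, a block for slide or for replicate number, untrended variance, probe means per gene, and each array left out in turn.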

Additional observations from a re-analysis of the deposited data

Results flagged for a closer look

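Among 44 groups of 4 arrays examined, 4 held an array far from the other 3, where chance gives about 1 in 20 groups, or 2.2 here. These groups cover tested probes of 8 of the 10 genes and of pathway genes named above. Untested probes, such as those of Ret and Hgf, were left out. Ackr3 was 2.15 in Nkx2-1cKO replicate 1, nearer to WT than the other mutant arrays (1.82 to 1.87). The other 3 were all in WT replicate 1, the array that read high for dim probes. The dimmer Gfra1 probe was -3.76 there against -4.28 to -4.26 on the other WT arrays, Gdnf was -3.40 against -4.75 to -4.61, and Ccr9 was -4.96 against -6.35 to -6.25. The part of that array's high dim signals in these values was not tested.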

How the results depend on the processing

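Over all alternatives Ackr3 kept a lower signal and Gfra1 a higher one. Over the tested probes, the median log2 fold change was -0.04. It was 0.08 with centring on the median, which moves every probe by nearly the same amount, and 0.20 with normexp, which moved probes by different amounts. The numbers of higher and lower probes were 132 and 192. They were 63 and 92 with normexp, 209 higher with the slide as a block, 115 lower with centring on the median, and 64 to 120 higher and 131 to 174 lower with 1 array left out. Of the 10 genes, 2 passed the threshold, but 1 with quantile normalization, 1 with normexp, 0 with centring on the median, 1 with no filter on dim probes and 1 to 2 with 1 array left out. Of the other pathway genes 1 passed, but 0 with normexp, with no filter or with no variance trend, 0 to 1 with 1 array left out, and 2 with the slide as a block, where Spry1, named after its values were seen, joined Gas1 (-0.39, limma adjusted p = 0.0238). Ackr3 did not pass with centring on the median (-0.73). Gfra1 did not pass with quantile normalization (0.75), normexp (0.77), centring on the median (0.79) or no filter (0.67), and ranged from 0.62 to 0.75 with 1 array left out.

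Whether the replicate numbers pair the samples could not be decided. Deviations of same-numbered arrays from their group means correlated at -0.481 to -0.194, but same-numbered arrays always lay on different slides. Differently numbered WT and Nkx2-1cKO arrays correlated at -0.449 to -0.231 across slides and at -0.016 to 0.571 within a slide. With the replicate number as a block 8 probes were higher and 65 lower, 0 of the 10 genes and 0 other pathway genes passed, and Ackr3 (-0.85, limma adjusted p = 0.059) and Gfra1 (0.67, adjusted p = 0.351) did not pass.

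Of the genes that did not pass, several changed sign. With normexp, the log2 fold change was 0.14 for Cxcr4 (8.03e-05 for its dimmer probe), 0.29 for the dimmer Cxcl12 probe, 0.56 for Gfra2, 0.35 for Gdnf, 0.27 for Met (0.47 for its second probe), 0.58 for Cxcl15, 0.28 for Cxcr2, 0.54 for Ccr9, 0.67 for Artn, 0.12 for Plg, 0.48 for Spint1 and 0.53 for Mst1. Quantile normalization gave 0.11 for Gfra2 and 0.027 for Artn, and centring on the median 0.058 for Cxcl14. With 1 array left out, the ranges were -0.14 to 0.0099 for Cxcl14, which changed sign without WT replicate 2 or Nkx2-1cKO replicate 1, -0.45 to 0.0026 for the dimmer Cxcl12 probe (highest without Nkx2-1cKO replicate 1), -0.23 to 0.12 for Gfra2 and -0.70 to 0.062 for Mst1 (both highest without WT replicate 1). The cause was not tested. The probes of Ret and Hgf and 1 of Met were too close to background to give a fold.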
